A study of Mus musculus with 16 samples.

Results

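The 39 genes described here encode the machinery that copies DNA in S phase. They were taken by symbol from a list of 41 replication genes arranged in 8 roles (origin licensing, the MCM2-7 helicase, helicase activation, polymerases and primase, the sliding clamp with its loader and Okazaki fragment joining, the single-strand binding protein RPA, deoxynucleotide synthesis, and histone deposition by CAF-1). The count table of the series holds 46078 genes, and 39 of the 41 were matched in it, while Cdt1 and Gins2 were not analysed here. Of these genes 39 of 39 were among the 14897 that passed the filter on low counts, which asked for a level of 1 CPM (counts relative to library size) or more in at least 3 of the 4 libraries of any group. For 32 of them that held in all 4 groups, for 2 in 3 groups (Gins3, Fen1), for 4 in 2 groups (Gins1, Prim1, Pole2, Rfc4), and Orc1 passed through the polyA control libraries alone, so that low values in its other groups were close to the limit of counting.

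RNA was sequenced from cultured mouse cells labelled as juxtaglomerular (JG) cells, the renin-producing cell type of the kidney. The JG cells carried a YFP reporter driven by the renin promoter. All cultures were transfected, either with a non-mammalian miRNA precursor as control or with miR-106b, and were taken after 48 h. Of each transfection 4 libraries were made from polyadenylated (polyA) RNA and 4 from immunoprecipitated RNA bound to Ago2 (Ago2-IP). Ago2 is the Argonaute protein that carries miRNAs and their target mRNAs. The titles do not say whether both kinds of RNA came from the same cultures. This gave control and miR-106b groups for polyA RNA and for Ago2-IP RNA, with 4 libraries each, and the comparisons ask how the transcripts changed with miR-106b in the cell and on Ago2.

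Replication starts where the origin recognition complex, with Cdc6, loads the ring of Mcm2 to Mcm7 on DNA in G1 phase. Cdc45 and the GINS complex then turn the ring into the moving helicase, primase lays down primers, and polymerases delta and epsilon extend them while held by the clamp Pcna. Transcripts of many of these genes are made at the G1/S boundary under E2F factors and are abundant in dividing cells. Mcm7 is also the host gene of the miRNA studied, since miR-106b, miR-93 and miR-25 are encoded in its introns.

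In the GENCODE and RefSeq annotations of GRCm38 the 3 hairpins lay in intron 13 of an Mcm7 transcript with 15 exons, on the minus strand of chromosome 5, with Mir106b at chr5:138165737-138165818, Mir93 at chr5:138165523-138165610 and Mir25 at chr5:138165321-138165404. Their mature 5′ or 3′ strands from RefSeq are given 5′ to 3′ with the seed, bases 2 to 8, in capitals, to show that miR-106b-5p and miR-93-5p share a seed and miR-25-3p does not.
miR-106b-5p: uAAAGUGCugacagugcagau
miR-93-5p: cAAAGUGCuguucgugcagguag
miR-25-3p: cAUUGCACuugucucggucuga

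A complement of this seed, GCACTTT (matching bases 2 to 8, called 7mer-m8, or 8mer when an A follows), stood in the longest annotated 3′UTR of 5 of the 39 genes, 12.8%, beside 2023 of 13234 genes tested that had an annotated 3′UTR, 15.3%. The 5 sites are printed as the DNA sense strand, since they are the places where miR-106b could pair with a replication transcript. Each has 10 bases before the site, the site in capitals, and the bases that follow. The positions are those of the capitals, in the 3′UTR, GRCm38.
Mcm3 (chr1:20803165-20803172, minus strand, 8mer): ccacccccagGCACTTTAgtccaggaag
Mcm7 (chr5:138164631-138164637, minus strand): ctcccatgctGCACTTTtttattctgcc
Rpa2 (chr4:132778329-132778335, plus strand): tttcggaattGCACTTTccttcccttgt
Rrm2 (chr12:24713640-24713646, plus strand): aataaaattgGCACTTTgcacacacaca
Chaf1a (chr17:56067790-56067796, plus strand): atgataaagaGCACTTTgtcctacattc

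Promoters of the genes were read for the E2F motif because these genes moved together in polyA RNA. The letters searched on both strands were TTTCCCGC, TTTCGCGC, TTTGCCGC and TTTGGCGC, in a RefSeq window from 250 bases before to 50 bases after the start (GRCm38.p6), which 33 of the 39 genes had. At least 1 match was found for 12 of 33 genes, 36.4%, and for 457 of 10389 genes tested with a window, 4.40%. In the bases before the start alone the counts were 8 of 33, 24.2%, and 381 of 10389, 3.67%. CCAAT was found for 22 of 33 genes, 66.7%, beside 42.5% of all genes, and TTTGAA in 5, 15.2%, beside 14.1%. Matched letters are a description of the sequence and not a measured binding site. The stretches below hold 60 bases before the start with the matches in capitals, for Mcm7 and Cdc6 with 1 match each and for Mcm6 and Mcm5 with 2 overlapping matches each. Mcm6 had another match before the start that lies outside the stretch shown.
Mcm7 (chr5:138172015-138172074, minus strand): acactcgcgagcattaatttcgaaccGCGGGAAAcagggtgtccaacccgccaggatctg
Mcm6 (chr1:128359782-128359841, minus strand): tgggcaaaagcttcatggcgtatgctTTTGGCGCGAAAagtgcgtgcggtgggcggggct
Mcm5 (chr8:75109330-75109389, plus strand): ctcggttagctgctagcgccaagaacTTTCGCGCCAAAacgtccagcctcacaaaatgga
Cdc6 (chr11:98907987-98908046, plus strand): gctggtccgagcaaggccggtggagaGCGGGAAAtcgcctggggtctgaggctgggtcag

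Libraries held between 2579086 and 9459585 counted reads, with 5692958 to 9459585 in polyA control and 2815272 to 4554848 in polyA miR-106b. For a gene without counts the upper limit is 3 counts, equal to between 0.317 and 1.16 CPM depending on the depth of the library. Reads carried no molecular identifiers, so this limit covers counting error only. Of the markers of the labelled cell type Ren1 had 0 counts in all 16 libraries and Akr1b7 averaged at most 0.144 CPM in any group, while Acta2 averaged 757 CPM in polyA control. The 6 juxtaglomerular and smooth muscle markers summed to 1177 to 1427 CPM in polyA control, 848 to 1354 CPM in polyA miR-106b and 529 to 566 CPM in the Ago2-IP libraries. They did not move together, since mean levels of Acta2 and Tagln went from 757 to 590.1 CPM and from 498 to 351 CPM with miR-106b in polyA RNA, those of Rgs5 and Myh11 from 38.5 to 85.7 CPM and from 15.6 to 32.2 CPM, and of the 4 tested 2 were higher and 1 lower (median log2 fold change 0.37). The rows of Mir106b, Mir93 and Mir25 held 0 counts apart from 1 count of Mir106b in 1 Ago2-IP control library, so that they gave no check of the transfection. Markers of other cell types were present and moved with the groups. All 25 cardiac muscle markers had counts in each group, with summed levels of 27118 to 37977 CPM in polyA control, 51977 to 89086 CPM in polyA miR-106b and 116061 to 128384 CPM in the Ago2-IP libraries, where Myh6 alone averaged 39469 CPM in controls. In polyA RNA 23 of 24 tested cardiac markers were higher with miR-106b (median log2 fold change 1.23), as were 8 of 8 endothelial (1.18) and 5 of 5 tested leukocyte markers (1.20).

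DNA replication transcripts were lower in polyA RNA after miR-106b. By edgeR's quasi-likelihood test 35 of the 39 genes were lower at an adjusted p under 0.05 and 0 were higher, whereas 21.5% of all genes tested were lower. Of the 30 genes with at least 10 counts in every polyA library 28 were lower, beside 27.7% of all genes so counted. The median log2 fold change of the 39 genes was -1.35, with a range from -2.13 (Pole) to -0.24 (Gins4), beside a median of -0.05 over all genes tested. The 4 genes not called were Gins1, Gins3 and Gins4, subunits of the GINS complex, and Rpa3, the smallest subunit of RPA. Summed over the 39 genes, the normalized level (CPM after TMM scaling within each kind of RNA) was 2169, 2398, 2218 and 1728 in polyA control replicates 1 to 4 (2128 ± 284, SD, n = 4) and 724, 913, 1207 and 673 in polyA miR-106b replicates 1 to 4 (879 ± 242, SD, n = 4). The highest miR-106b library lay below the lowest control library. In bulk RNA, fewer cells that express these genes and less of the RNA per cell cannot be told apart.

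The same libraries differed in cardiac markers, and the count of called genes depended on how that was treated. Cardiac markers took 5.20, 8.91, 6.47 and 8.71% of the counts in polyA miR-106b replicates 1 to 4 and 2.71 to 3.80% in polyA control, without overlap between the groups. With their level as a covariate, 0 of 39 genes and 0 of 14897 genes passed edgeR's quasi-likelihood test, with 7 and 1392 at an unadjusted p under 0.05, and the estimates stayed negative for 38 of 39 genes with a median of -0.94, beside -0.04 over all genes. Without polyA miR-106b replicates 2 and 4, which had the most cardiac counts, 24 of 39 were lower, beside 9.82% of all genes tested, in a setting chosen after seeing the data. The summed normalized level of the replication genes in polyA miR-106b replicates 1 to 4 was 724, 913, 1207 and 673 CPM. Its relation to the cardiac counts within the group was not tested. When the Ago2-IP control profile, scaled to the cardiac markers, was subtracted from each polyA library (also chosen after seeing the data), 38 of 39 genes kept a lower mean, beside 52.1% of all genes tested, with a median log2 ratio of -0.87 beside -1.37 before. The subtraction took 41.5 to 71.2% of the polyA miR-106b libraries and 21.7 to 30.4% of the controls, and it left values below 0 for 2 of the 39 genes and for 28.8% of all genes tested. The summed level then averaged 2722 ± 294 CPM (control) and 1512 ± 623 CPM (miR-106b), with ranges of 2296 to 2964 and 889 to 2112. The part of the cardiac, endothelial and leukocyte transcripts in the fall was not tested beyond these values.

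**Figure D1:**
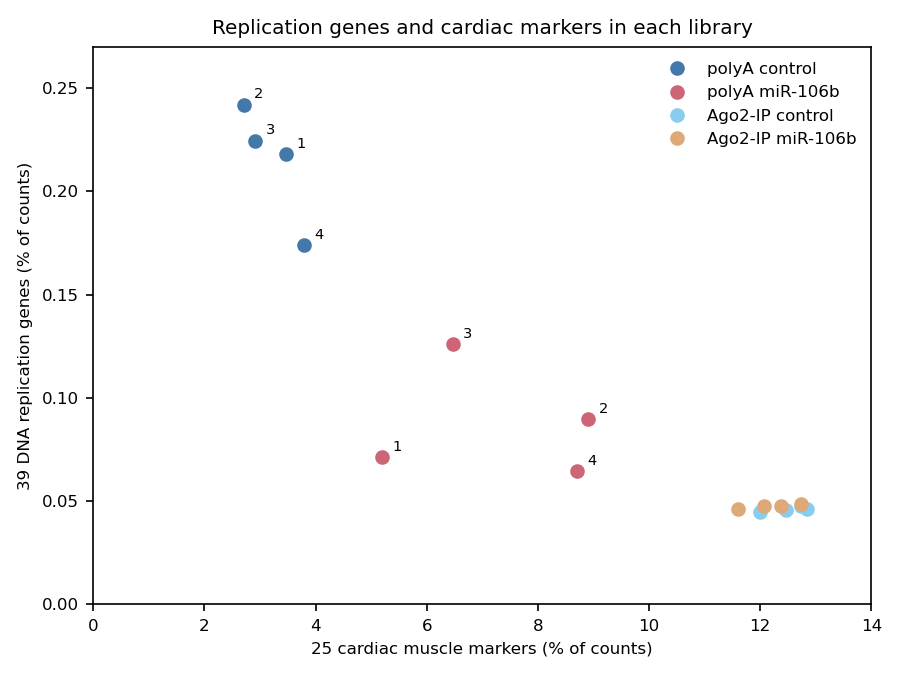
Share of all counts in the 39 DNA replication genes (vertical axis, %) against the share in 25 cardiac muscle markers (horizontal axis, %), 1 point per library, colored by group, with replicate numbers beside the polyA libraries. Replication genes took 0.174 to 0.242% of the counts in polyA control, 0.0645 to 0.126% in polyA miR-106b and 0.0448 to 0.0487% in the Ago2-IP libraries, where cardiac markers took 11.6 to 12.8%.

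Library by library, 34 of 39 genes had every polyA miR-106b library below every polyA control library, beside 21.6% of all genes tested. Gins3, Gins4, Fen1, Rpa2 and Rpa3 overlapped. After the subtraction described above the number was 14 of 39, beside 7.75% of all genes tested. The genes also varied together within a group, an order looked for after their values were seen. In polyA control, replicate 4 was the lowest of the 4 for 33 of 39 genes, beside 31.3% of all genes tested. In polyA miR-106b, replicate 3 was the highest for 30 of 39 genes, beside 24.8%, and replicates 1 and 4 both lay below replicates 2 and 3 for 23 of 39, beside 17.0%. The opposite order, replicates 1 and 4 above 2 and 3, was seen for 1 gene, Rpa1, beside 20.9% of all genes.

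**Figure D2:**
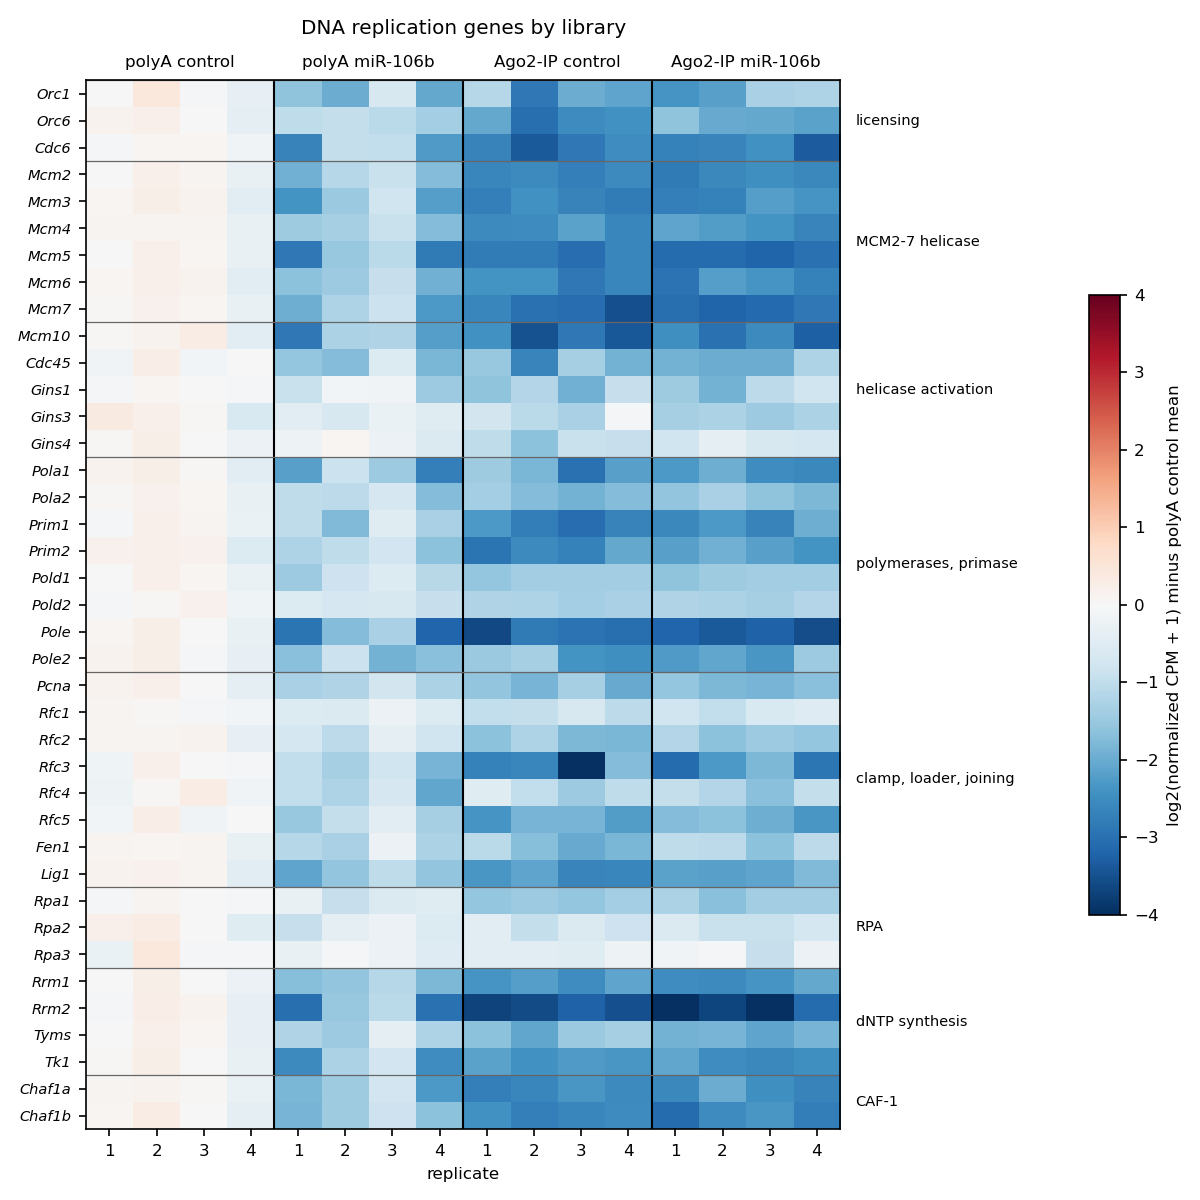
Heat map of the 39 genes (vertical, grouped by role) in the 16 libraries (horizontal, replicates 1 to 4 of each group). Color gives log2(normalized CPM + 1) minus the gene's mean in polyA control, from -4 (blue) to 4 (red). Most genes are blue in polyA miR-106b and in both Ago2-IP groups, with replicate 3 the palest of the polyA miR-106b libraries for 30 of 39 genes.

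Each gene below is given by its normalized CPM in replicates 1 to 4 and by edgeR's log2 fold change with its SE and Benjamini-Hochberg adjusted p over all genes. For single values an exact two-sided permutation test of 4 against 4 libraries has 70 relabellings and cannot give less than p = 0.0286.

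Among the licensing genes 3 of 3 measured were lower in polyA RNA, with log2 fold changes between -1.95 and -1.22. Orc1, the largest subunit of the origin recognition complex, fell by 1.95 ± 0.41 on the log2 scale and Orc6, its smallest, by 1.22 ± 0.20. Orc1 passed the filter on low counts through polyA control alone, where it is high, so the filter favored a fall for it. Cdc6, the loader of the helicase, had the highest CPM of the role, a value that is not scaled by gene length. Cdc6 was at 17.5, 19.1, 19.2 and 16.4 normalized CPM in polyA control and at 2.01, 8.81, 8.54 and 2.96 in polyA miR-106b. Every miR-106b library lay under every control, and replicates 1 and 4 were the lowest. It fell by 1.69 ± 0.33 on the log2 scale (adjusted p = 0.00177), and the means were 18.03 ± 1.32 and 5.58 ± 3.59 CPM (SD, n = 4). In Ago2-IP RNA its normalized CPM were 1.99, 0.838, 1.61 and 2.40 (control) and 1.94, 2.04, 2.58 and 0.873 (miR-106b). These groups overlapped, at levels near or little above the counting limit.

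All 6 genes of the MCM2-7 ring were lower in polyA RNA, within a narrow band from -1.90 (Mcm5) to -1.35 (Mcm4). Mcm7, at chr5:138164583-138172422 on the minus strand of GRCm38, was the most abundant of them per kilobase of exon. In polyA RNA Mcm7 stood at 199, 220.0, 206 and 159 normalized CPM (control) and at 50.1, 82.2, 107 and 39.2 (miR-106b). The groups did not overlap, and replicate 3 was the highest and replicate 4 the lowest with miR-106b. Means of 196 ± 26.3 CPM (control) and 69.5 ± 30.7 CPM (miR-106b, SD, n = 4) gave a log2 fold change of -1.49 ± 0.26 (adjusted p = 0.00159). The Ago2-IP libraries gave 31.02, 23.7, 22.6 and 15.9 normalized CPM (control) and 23.2, 20.4, 21.6 and 25.9 (miR-106b). Here the groups overlapped fully, with the control libraries spread more widely than those with miR-106b. Mcm3 holds the 8mer site printed above. Control libraries of polyA RNA held 102, 113, 105 and 69.5 normalized CPM of Mcm3, and miR-106b libraries held 17.4, 33.6, 54.5 and 19.99. Again every miR-106b library was lower. This was a log2 fold change of -1.63 ± 0.32 (adjusted p = 0.00317) between means of 97.4 ± 19.2 and 31.4 ± 16.98 CPM (SD, n = 4). Bound to Ago2 it had 13.7, 17.03, 14.2 and 12.9 normalized CPM (control) and 13.6, 14.01, 19.98 and 18.04 (miR-106b). The Ago2-IP groups overlapped. Mcm2 fell by 1.38 ± 0.20, Mcm6 by 1.49 ± 0.20 and Mcm4 by 1.35 ± 0.17 on the log2 scale.

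Genes of helicase activation divided into a group that was lower and a group that did not pass. Mcm10 and Cdc45, which join the helicase when origins fire, were called. Mcm10 was at 26.4, 28.1, 31.3 and 18.3 normalized CPM in polyA control and at 2.68, 10.1, 10.5 and 4.81 in polyA miR-106b. The miR-106b libraries formed a lower pair, replicates 1 and 4, and a higher pair, replicates 2 and 3, all under the controls. It fell by 1.89 ± 0.32 on the log2 scale (adjusted p = 0.000900), and the means were 26.00 ± 5.51 and 7.03 ± 3.89 CPM (SD, n = 4). In Ago2-IP RNA its normalized CPM were 3.98, 1.40, 2.69 and 1.53 (control) and 3.87, 2.33, 3.54 and 1.75 (miR-106b). The Ago2-IP libraries overlapped at low counts. Cdc45 fell by 1.46 ± 0.28 on the log2 scale. The GINS subunits did not pass, with log2 fold changes of -0.70 ± 0.36 for Gins1, -0.68 ± 0.34 for Gins3 and -0.24 ± 0.18 for Gins4. Gins3 passed without polyA control replicate 4 (adjusted p = 0.0392 by edgeR's quasi-likelihood test). Gins4 was the best counted of these. In polyA RNA Gins4 stood at 14.7, 16.8, 14.1 and 11.9 normalized CPM (control) and at 12.3, 14.95, 11.8 and 9.26 (miR-106b). Its groups overlapped, and replicate 2 with miR-106b lay above 3 of the 4 controls. The Ago2-IP libraries gave 6.54, 3.91, 7.25 and 6.99 normalized CPM (control) and 7.75, 10.8, 8.70 and 8.44 (miR-106b). In Ago2-IP RNA every miR-106b library lay above every control (exact permutation p = 0.0286, log2 fold change 0.53 ± 0.26), but the adjusted p of edgeR's quasi-likelihood test was 0.880.

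All 8 polymerase and primase genes were lower in polyA RNA, with a median log2 fold change of -1.24. Pole, the catalytic subunit of polymerase epsilon, which extends the leading strand, showed the largest fall of the 39 genes. Control libraries of polyA RNA held 86.8, 95.1, 80.5 and 66.2 normalized CPM of Pole, and miR-106b libraries held 9.83, 23.8, 32.5 and 8.14. The groups were far apart, with replicates 1 and 4 at the bottom. Means of 82.1 ± 12.2 CPM (control) and 18.6 ± 11.6 CPM (miR-106b, SD, n = 4) gave a log2 fold change of -2.13 ± 0.36 (adjusted p = 0.00159). Bound to Ago2 it had 5.69, 10.6, 9.67 and 9.17 normalized CPM (control) and 8.14, 7.004, 7.73 and 6.11 (miR-106b). Ago2-IP groups overlapped at a level like that of the lowest polyA miR-106b libraries. Pole2, its second subunit, fell almost as far. Pole2 was at 6.47, 6.91, 5.39 and 4.36 normalized CPM in polyA control and at 1.12, 2.67, 0.826 and 1.11 in polyA miR-106b. All miR-106b libraries were lower, and replicate 2 stood above the other 3. This was a log2 fold change of -2.00 ± 0.36 (adjusted p = 0.00111) between means of 5.78 ± 1.14 and 1.43 ± 0.837 CPM (SD, n = 4). In Ago2-IP RNA its normalized CPM were 1.42, 1.68, 0.269 and 0.218 (control) and 0.387, 0.584, 0.322 and 1.45 (miR-106b). Of these 8 Ago2-IP values 5 were under the level of 3 counts. Pold1, the catalytic subunit of polymerase delta, which works on the lagging strand, had the highest CPM of the role. In polyA RNA Pold1 stood at 97.5, 112, 102 and 80.5 normalized CPM (control) and at 34.6, 55.00, 66.6 and 44.8 (miR-106b). The groups did not overlap. It fell by 0.97 ± 0.18 on the log2 scale (adjusted p = 0.00127), and the means were 98.2 ± 13.4 and 50.3 ± 13.7 CPM (SD, n = 4). The Ago2-IP libraries gave 33.01, 36.3, 36.5 and 36.5 normalized CPM (control) and 31.4, 35.9, 36.7 and 36.95 (miR-106b). Its Ago2-IP libraries lay close together in both groups. Pola1 and Pola2 of polymerase alpha fell by 1.85 ± 0.34 and 1.10 ± 0.19 on the log2 scale, the primase genes Prim1 and Prim2 both by 1.24 (± 0.29 and ± 0.23), and Pold2 by 0.70 ± 0.12.

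The clamp, its loader and the joining enzymes were lower in polyA RNA in 8 of 8 genes, from -1.76 (Rfc4) to -0.49 (Rfc1). Pcna encodes the sliding clamp that holds the polymerases on DNA. Control libraries of polyA RNA held 84.6, 87.00, 76.6 and 58.7 normalized CPM of Pcna, and miR-106b libraries held 29.9, 32.3, 44.9 and 31.1. The groups did not overlap, and replicate 3 stood above the other 3 with miR-106b. Means of 76.7 ± 12.8 CPM (control) and 34.6 ± 6.95 CPM (miR-106b, SD, n = 4) gave a log2 fold change of -1.15 ± 0.16 (adjusted p = 0.000682). Bound to Ago2 it had 24.8, 20.4, 29.6 and 18.1 normalized CPM (control) and 25.2, 21.3, 20.3 and 22.99 (miR-106b). The Ago2-IP groups overlapped. The GENCODE annotation also lists 2 processed pseudogenes named for Pcna and 1 for Tyms, and the effect of reads shared with them on the counts was not examined. Rfc1, the large subunit of the clamp loader, was the least lowered gene that passed in polyA RNA. Rfc1 was at 57.9, 55.3, 51.5 and 50.1 normalized CPM in polyA control and at 36.2, 35.2, 45.2 and 36.7 in polyA miR-106b. The groups did not overlap, with replicate 3 the highest of the miR-106b libraries. This was a log2 fold change of -0.49 ± 0.12 (adjusted p = 0.00601) between means of 53.7 ± 3.57 and 38.3 ± 4.60 CPM (SD, n = 4). Without polyA control replicate 1 or 2 the call was lost (adjusted p = 0.0642 and 0.0581 by edgeR's quasi-likelihood test). In Ago2-IP RNA its normalized CPM were 26.7, 27.4, 34.1 and 25.3 (control) and 30.2, 26.8, 34.5 and 37.5 (miR-106b). The Ago2-IP libraries overlapped. Lig1, the ligase that joins Okazaki fragments, fell by 1.60 ± 0.21 on the log2 scale. Fen1, which trims their flaps, fell by 1.27 ± 0.37, but its exons overlap Gm10143 on the other strand over 78.8% of their length and the libraries do not keep the strand, so the genes cannot be told apart there. The call of Fen1 was lost without polyA control replicate 1, 2 or 3 (adjusted p from 0.0570 to 0.0616 by edgeR's quasi-likelihood test).

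RPA, which coats single-stranded DNA, had the smallest median fall of the 8 roles in polyA RNA, a log2 fold change of -0.56 over 3 genes, 2 of them called. Differences between roles were not tested. Rpa1, the large DNA-binding subunit, had the highest CPM of the 3. In polyA RNA Rpa1 stood at 145, 159.5, 151 and 141 normalized CPM (control) and at 120.5, 78.5, 99.1 and 105.9 (miR-106b). The groups did not overlap, and here replicates 1 and 4 were the highest with miR-106b. It fell by 0.56 ± 0.13 on the log2 scale (adjusted p = 0.00410), and the means were 149 ± 7.96 and 101 ± 17.4 CPM (SD, n = 4). The Ago2-IP libraries gave 50.4, 53.6, 50.2 and 57.2 normalized CPM (control) and 61.6, 45.8, 56.1 and 55.9 (miR-106b). The Ago2-IP groups overlapped. Rpa2, which holds a seed site, passed, but the call was lost in 12 of 18 other settings. Control libraries of polyA RNA held 22.4, 23.9, 19.6 and 13.6 normalized CPM of Rpa2, and miR-106b libraries held 9.83, 14.95, 16.5 and 12.96. Its groups overlapped, since replicates 2 and 3 with miR-106b exceeded replicate 4 of the controls. Means of 19.9 ± 4.53 CPM (control) and 13.6 ± 2.89 CPM (miR-106b, SD, n = 4) gave a log2 fold change of -0.56 ± 0.21 (adjusted p = 0.0473). By edgeR's quasi-likelihood test the adjusted p was 0.0892 with DESeq2 size factors and up to 0.253 without a single library (without polyA control replicate 2). Bound to Ago2 it had 13.9, 9.49, 12.6 and 10.5 normalized CPM (control) and 12.8, 9.92, 9.99 and 11.6 (miR-106b). No separation was seen there. Rpa3 did not pass. Rpa3 was at 4.58, 7.96, 5.39 and 5.41 normalized CPM in polyA control and at 4.47, 5.34, 4.68 and 3.70 in polyA miR-106b. The groups overlapped. This was a log2 fold change of -0.36 ± 0.25 (adjusted p = 0.274) between means of 5.83 ± 1.47 and 4.55 ± 0.675 CPM (SD, n = 4). In Ago2-IP RNA its normalized CPM were 3.98, 3.91, 3.76 and 4.80 (control) and 5.04, 5.54, 2.58 and 4.66 (miR-106b). The Ago2-IP values overlapped too.

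Deoxynucleotide synthesis was lower in 4 of 4 genes in polyA RNA. Rrm2, the small subunit of ribonucleotide reductase, whose level rises in S phase, is 1 of the 5 genes with a seed site. In polyA RNA Rrm2 stood at 97.5, 126, 114 and 82.9 normalized CPM (control) and at 11.8, 35.5, 48.2 and 12.2 (miR-106b). Replicates 1 and 4 lay well under replicates 2 and 3, and all lay under the controls. It fell by 1.96 ± 0.42 on the log2 scale (adjusted p = 0.00600), and the means were 105 ± 19.00 and 26.9 ± 17.98 CPM (SD, n = 4). The Ago2-IP libraries gave 7.11, 7.82, 10.2 and 8.08 normalized CPM (control) and 3.87, 7.30, 5.16 and 11.3 (miR-106b). The Ago2-IP groups overlapped. Rrm1, the large subunit, fell by 1.58 ± 0.16, the thymidylate synthase gene Tyms by 1.06 ± 0.23 and the thymidine kinase gene Tk1 by 1.60 ± 0.37 on the log2 scale. Both subunits of the histone chaperone CAF-1 were lower. Control libraries of polyA RNA held 67.2, 68.2, 64.5 and 51.1 normalized CPM of Chaf1a, and miR-106b libraries held 16.8, 22.7, 36.1 and 11.8. The groups did not overlap. Means of 62.8 ± 7.89 CPM (control) and 21.8 ± 10.5 CPM (miR-106b, SD, n = 4) gave a log2 fold change of -1.51 ± 0.25 (adjusted p = 0.000846). Bound to Ago2 it had 8.54, 9.49, 11.6 and 9.83 normalized CPM (control) and 9.69, 14.9, 10.6 and 9.02 (miR-106b). The Ago2-IP libraries overlapped. Within the interval given in the count table, exons of Chaf1a overlap Ubxn6 on the other strand over 13.5% of their length, where reads cannot be assigned by strand, whereas Chaf1b, with no overlap, fell by 1.49 ± 0.22 on the log2 scale.

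**Figure D3:**
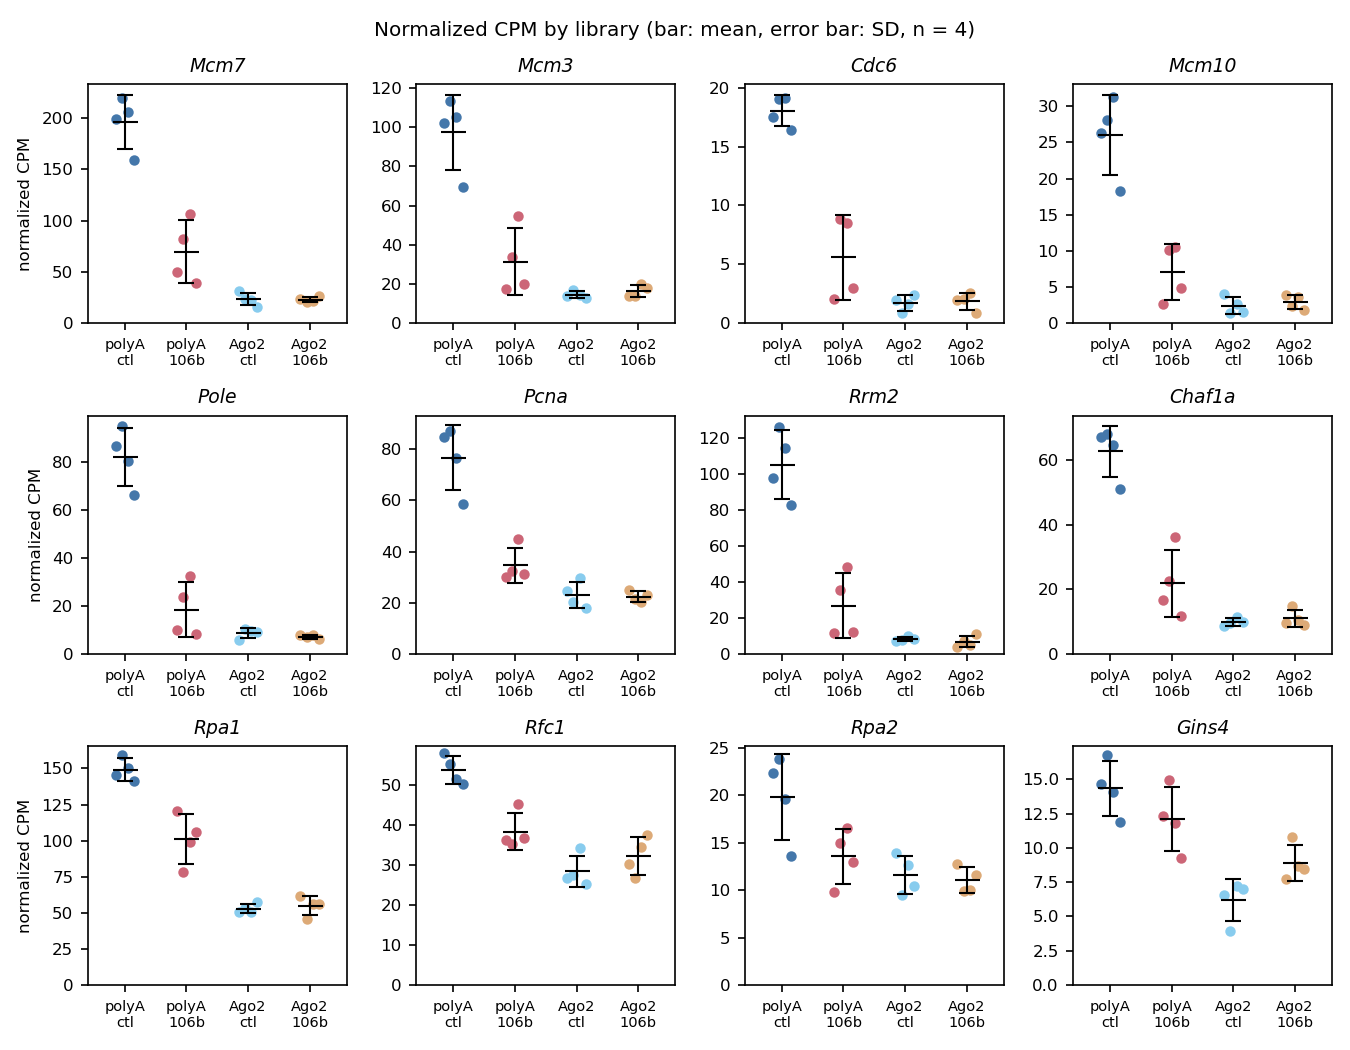
Normalized CPM (vertical axes, from 0) of 12 genes in the 4 groups, 1 point per library, with the mean and SD of 4 libraries. Pole, Rrm2 and Cdc6 are far lower in polyA miR-106b than in polyA control, Rpa1 and Rfc1 less so, and Rpa2 and Gins4 overlap between the polyA groups.

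Compared per kilobase of exon (normalized CPM divided by the annotated exon length), the order of levels in polyA control was led by Pold2 (50.4 ± 5.003), Mcm7 (44.3 ± 5.94), Rrm2 (38.0 ± 6.86), Mcm5 (35.8 ± 4.89) and Pcna (32.0 ± 5.35, SD, n = 4 each), and Gins3 was the lowest (1.33 ± 0.450). Between neighbors among these 5, the intervals of mean ± SD overlapped. With miR-106b Pold2 still led (31.1 ± 3.28), now followed by Rpa1 (18.1 ± 3.13), Mcm7 (15.7 ± 6.94) and Pcna (14.4 ± 2.90), and Rrm2 was at 9.72 ± 6.49.

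In Ago2-IP RNA no change of the replication genes with miR-106b was detected. By edgeR's quasi-likelihood test 0 of 39 genes passed, and 0.00% of all genes tested did. At an unadjusted p under 0.05 there were 2 of the 39 genes and 827 of 14897 genes, and DESeq2's Wald test called 0 of the 39 and 2 of all genes, and edgeR's likelihood ratio test 0 and 18. Log2 fold changes ran from -1.12 ± 0.65 (Gins3) to 0.92 ± 0.73 (Fen1) with a median of 0.05. The summed normalized level was 475, 461, 455 and 452 CPM in Ago2-IP control and 474, 463, 471 and 487 CPM in Ago2-IP miR-106b replicates 1 to 4. The ranges, 452 to 475 and 463 to 487 CPM, overlap. For the 5 genes with a seed site the log2 fold changes in Ago2-IP RNA were 0.19 ± 0.18 (Mcm3), -0.02 ± 0.15 (Mcm7), -0.07 ± 0.20 (Rpa2), -0.23 ± 0.27 (Rrm2) and 0.17 ± 0.21 (Chaf1a), with adjusted p between 0.937 and 0.997.

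The Ago2:polyA ratio of the replication genes was higher after miR-106b. In the test of the interaction over 16 libraries by edgeR's quasi-likelihood test, 26 of 39 genes had a higher ratio and 0 a lower one, and 7.62% of all genes tested had a higher ratio. The median log2 change was 1.32, from -0.60 (Gins3) to 2.26 (Orc1, adjusted p = 0.0575), beside -0.07 over all genes. The test uses the same libraries as the comparison in polyA RNA, where the level fell, while the level in Ago2-IP RNA did not pass. All 6 MCM genes and both CAF-1 genes passed, as did 6 of 8 polymerase and primase genes, 6 of 8 clamp, loader and joining genes, 2 of 5 of helicase activation, 2 of 4 of deoxynucleotide synthesis, 1 of 3 of RPA and 1 of 3 of licensing. Some calls depended on the setting. They were lost in 15 of 25 other settings for Tk1, 14 of 25 for Mcm5, 12 of 24 for Fen1 and 10 of 24 for Prim1. Rfc1 lost its call in 9 of 25, Rpa1 in 8 of 25 and Cdc45 in 7 of 24. In the other direction Cdc6 newly passed in 11 of 24 and Orc1 in 9 of 24. Of the 5 with a seed site Mcm3 (1.68 ± 0.43), Chaf1a (1.54 ± 0.35) and Mcm7 (1.32 ± 0.40) passed, and Rrm2 (1.59 ± 0.66, adjusted p = 0.0947) and Rpa2 (0.35 ± 0.29, adjusted p = 0.403) did not. Without polyA miR-106b replicates 2 and 4 the number was 17 of 39, beside 4.81% of all genes tested. The cardiac levels of the polyA groups given above enter this ratio, and their part in it was not tested further.

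**Figure D4:**
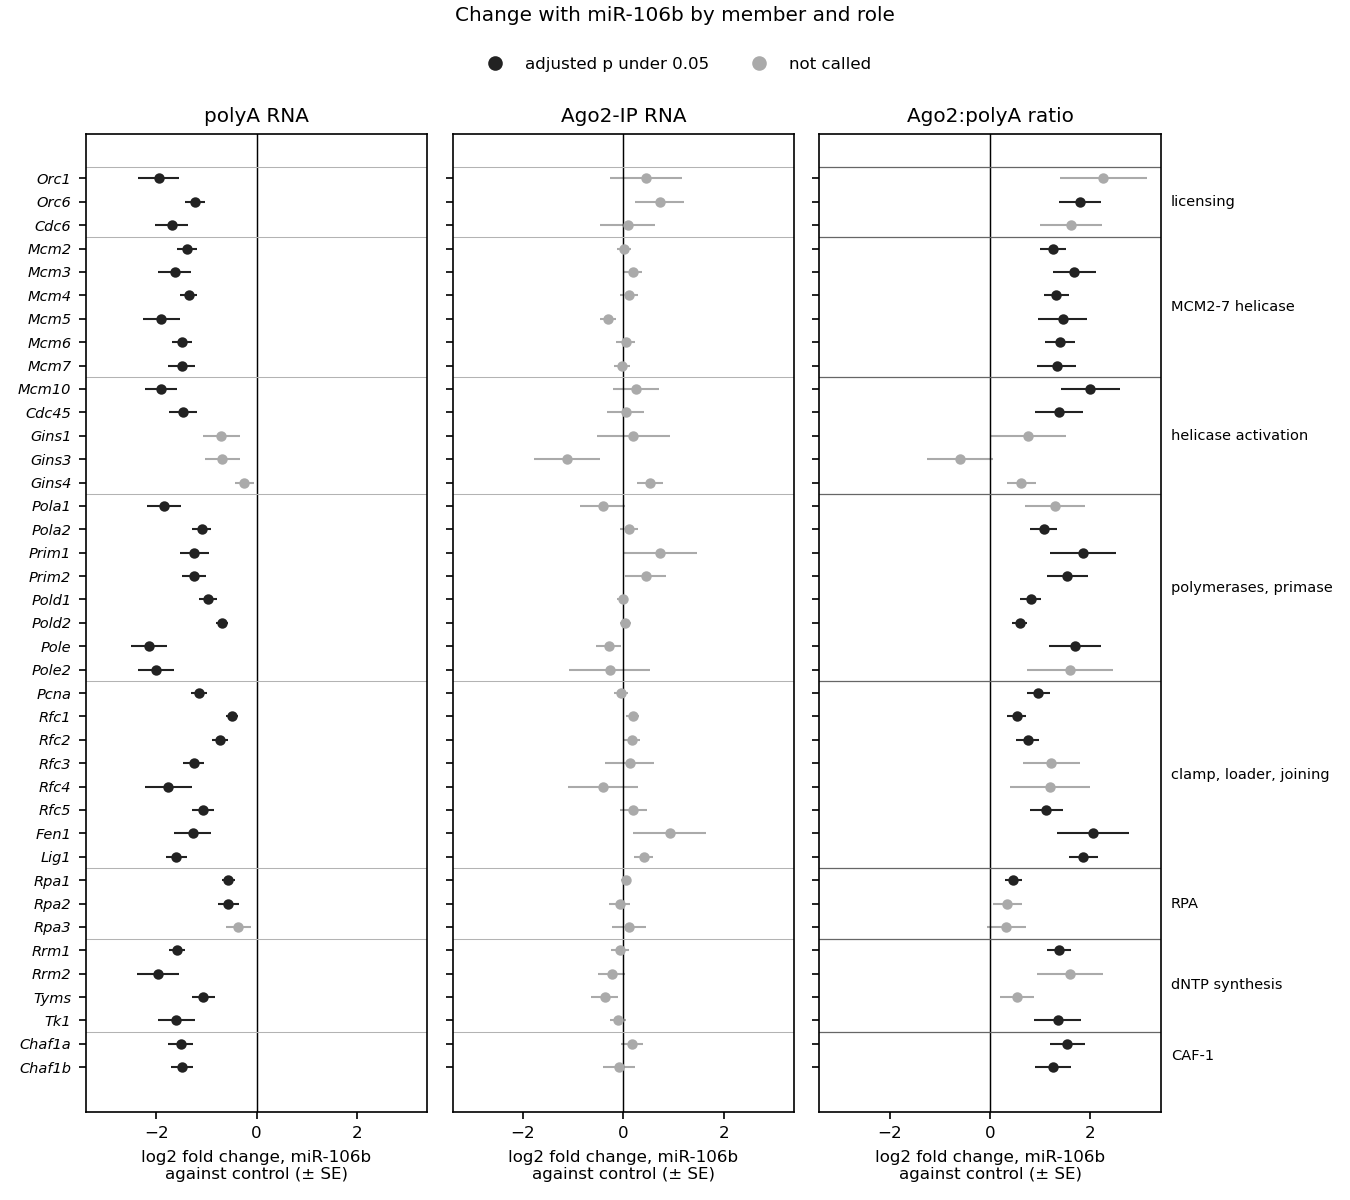
Log2 fold change with miR-106b (horizontal axes, ± SE) of the 39 genes, grouped by role, in polyA RNA, in Ago2-IP RNA and for the Ago2:polyA ratio. Black points have an adjusted p under 0.05: 35 genes lie left of 0 in polyA RNA, 0 are black in Ago2-IP RNA, and 26 lie right of 0 for the ratio.

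Replication transcripts were scarcer in Ago2-IP than in polyA RNA. In control cultures 37 of 39 genes were lower in Ago2-IP RNA by edgeR's quasi-likelihood test, beside 34.6% of all genes tested, with a median log2 difference of -2.22. Orc1, Gins1, Prim1 and Pole2 passed the filter on low counts through polyA libraries alone, so the filter favored a difference for them. Of the 23 genes with at least 10 counts in every library 23 were lower, beside 39.5% of all genes so counted. Rrm2 differed by -3.36 ± 0.42 on the log2 scale, and Rpa3 (-0.21 ± 0.26) and Gins3 (-0.72 ± 0.39) did not pass. With miR-106b 23 of 39 were lower in Ago2-IP RNA and 0 higher, beside 24.4% of all genes, with a median of -0.82. Rrm2 then differed by -1.77 ± 0.48 on the log2 scale, and 16 of the 23 genes with at least 10 counts in every library were lower, beside 30.5% of all genes so counted. Cardiac markers were higher in the Ago2-IP libraries, as given above, and their part in these differences was not tested.

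Beyond the 39 genes, 52 other replication genes, from firing factors to histone chaperones, were looked up in the same fits, and 52 of 52 were tested. In polyA RNA 35 were lower and 0 higher (median log2 fold change -0.89), beside 21.5% of all genes tested that were lower. The class of origin and firing factors had 10 of 15 lower, polymerase subunits and fork proteins 12 of 20, and nucleotide supply and copying of chromatin 13 of 17. The largest falls were those of Top2a, the topoisomerase that untangles chromosomes (-1.91 ± 0.50), Ticrr, which fires origins (-1.85 ± 0.33), and Atad5, which unloads the clamp (-1.83 ± 0.30). With the cardiac level as a covariate the number lower was 0 by edgeR's quasi-likelihood test (7 of 52 had an unadjusted p under 0.05), and it was 22 without polyA control replicate 2, 23 without polyA control replicate 3 and 17 without polyA miR-106b replicates 2 and 4, beside 10.98, 11.4 and 9.82% of all genes tested. In Ago2-IP RNA 0 of 52 passed by edgeR's quasi-likelihood test, with 3 at an unadjusted p under 0.05, and 0 by DESeq2's Wald test. The ratio was higher for 14 of 52 and lower for 0, beside 7.62% of all genes tested that were higher, and without polyA miR-106b replicate 3 it was higher for 23 and lower for 1, beside 10.3 and 21.96% of all genes tested.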

How the data were processed

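RNA-Seq libraries were prepared without strand information and sequenced from 1 end over 50 bases. Ribosomal RNA reads were dropped by the authors, who mapped the others to GRCm38 with TopHat2 (version 2.0.10 in the submitters' processing notes) and assigned them to genes with HTSeq. The deposited counts are whole numbers per gene and library, neither normalized nor filtered. Rows without a gene symbol (197, holding 0.618% of the counts) were kept in the tests and library sizes, since they carry gene identifiers.

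Libraries were grouped by their titles. The tests were run with edgeR 4.0.16 in R 4.3.3. TMM scaling and the quasi-likelihood F test (robust, two-sided, prior count 0.125) were applied to the polyA libraries, to the Ago2-IP libraries, and to all 16 for the ratio and for the 2 kinds of RNA, with Benjamini-Hochberg adjustment over 14897 genes and a threshold of 0.05. SEs are the log2 fold change divided by the root of F. Where labels give separate cultures, p-values measure the spread between them. Libraries differed from each other by more than sampling noise (chi-square per degree of freedom at least 1.69). Replicate numbers showed no clear pairing of libraries (correlations of deviations from -0.46 to 0.30), which cannot show that no culture was shared. On simulated counts with known changes, estimates were close to the changes put in and few unchanged genes were called. The test of the ratio recovered a smaller share of the changed genes than the tests in polyA or Ago2-IP RNA. The simulation gave all groups the same spread and changed few genes. In the data 40.5% of all genes tested were called in polyA RNA, so it does not show how the tests behave there. DESeq2 1.42.0, other scalings and filters, a replicate block, a cardiac covariate and leaving out each library were alternatives.

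The genes and lists were chosen with earlier results of these data known. Genes given library by library are Mcm7, the gene of each role with the highest normalized CPM (not scaled by gene length) in polyA control, the 3 largest and 3 smallest falls in polyA RNA, and those with a seed site. Gene annotation was GENCODE M21, and promoters and miRNAs came from RefSeq (GRCm38.p6). Start coordinates of the table count from 0. Sequences were read in Python 3.11.15 with pandas 2.3.3, and figures drawn with matplotlib 3.10.9.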

Additional observations from a re-analysis of the deposited data

Results flagged for a closer look

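In 160 groups of 4 values (39 genes and their sum in 4 groups) the most distant library was compared with the range of its group. It stood apart in 14, where chance gives about 8, or 1 in 20. The genes share the same libraries and varied together within a group, so the 160 are not independent. The share over all genes tested was not taken. Values are normalized CPM, with those of the other 3 libraries in parentheses.

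In polyA control, replicate 4 stood low for Mcm4 at 60.4 (80.1 to 80.6), Prim2 at 12.9 (21.9 to 22.5), Rfc2 at 50.1 (68.3 to 70.03), Fen1 at 3.14 (4.40 to 4.58) and Lig1 at 52.0 (77.5 to 79.9). In polyA miR-106b, replicate 3 stood high for Cdc45 at 10.5 (3.70 to 4.69), Pcna at 44.9 (29.9 to 32.3), Rfc1 at 45.2 (35.2 to 36.7), Fen1 at 3.30 (1.07 to 1.34) and Tyms at 20.1 (8.81 to 10.7). Replicate 2 of the same group stood high for Pole2 at 2.67 (0.826 to 1.12). In Ago2-IP control, replicate 1 was low for Pold1 at 33.0 (36.3 to 36.5). In Ago2-IP miR-106b, replicate 4 was high for Cdc45 at 6.11 (3.21 to 3.49) and replicate 3 low for Fen1 at 0.644 (1.45 to 1.55).

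The change with miR-106b differed between Ago2-IP and polyA RNA for 26 of 39 genes by the interaction test of edgeR, 26 in the direction of a higher ratio.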

How the results depend on the processing

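In polyA RNA 35 genes were lower, beside 21.5% of all genes tested, and 32 to 36 when 1 library was left out. The number was 32 without polyA control replicate 1 or 2, beside 12.3 and 10.98% of all genes tested. It was 36 without replicate 4 of that group, beside 19.99%. With a cardiac covariate 0 of 39 genes and 0 of the other 52 passed (adjusted p of edgeR's quasi-likelihood test), and Rpa3 turned to 0.0386 (adjusted p = 0.988). The covariate did not overlap between the polyA groups, and its part cannot be told apart from that of transfection. Under the other planned settings 28 (of 30 tested with at least 10 counts in every library) to 35 genes were lower. Over all genes tested the share lower then ran from 9.53% (no filter on low counts) to 27.7% (at least 10 counts in every library). Groups that did not overlap numbered 34, then 34 to 37 without single libraries, and 14 after the subtraction. Over all genes tested the share was 21.6% and, after the subtraction, 7.75%. It was not taken without single libraries. In Ago2-IP RNA the count was 0 in every setting run. For the ratio 26 became 19 to 30 without single libraries and 17 without polyA miR-106b replicates 2 and 4, a choice made after seeing the data. Of all genes tested 7.62% had a higher ratio in the main fit. The share was 5.38% without polyA control replicate 2 (19 genes) and 10.3% without polyA miR-106b replicate 3 (30 genes). Ago2-IP against polyA RNA gave 37 in control (35 to 38 without single libraries, 23 of 23 tested with at least 10 counts in every library) and 23 with miR-106b (16 to 26). The shares of all genes lower were 34.6% in control, 32.4% without polyA control replicate 2 (35 genes) and 33.9% without replicate 4 (38 genes). With miR-106b they were 24.4%, 23.2% without polyA miR-106b replicate 3 (16 genes) and 21.5% without replicate 1 (26 genes). The other 52 genes gave 35 in polyA RNA (22 to 37 without single libraries, lowest without polyA control replicate 2, while dropping replicate 3 of that group gave 23), 23 of 38 tested with at least 10 counts in every library and 17 without both miR-106b replicates. Over all genes the share lower was 10.98 and 11.4% without polyA control replicates 2 and 3, and 27.7% with at least 10 counts in every library. Their ratio gave 14 (12 to 24, highest without polyA miR-106b replicate 3), 9 of 31 tested with at least 10 counts in every library and 23 by the likelihood ratio test. The share of all genes with a higher ratio was 12.7% with at least 10 counts in every library and 12.2% by the likelihood ratio test. Fewer genes were tested under the stricter count minimum, and the cause of the other shifts was not tested. With the replicate block the member counts were 34 in polyA RNA, 0 in Ago2-IP RNA, 25 for the ratio, 37 and 23. For the other genes they were 36, 0 and 16. Of all genes tested 19.7% were then lower in polyA RNA and 7.47% had a higher ratio. In Ago2-IP against polyA RNA 34.2% (control) and 23.5% (miR-106b) were lower. The titles do not say whether equal numbers share a culture. Promoters with an E2F motif numbered 12, or 8 before the start alone, and seed sites 5 in any annotated 3′UTR.

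Calls in polyA RNA were 47.0% higher with TMM and 61.4% with all 16 libraries in 1 fit. For the ratio the share was 27.9% with TMM, 46.3% with library size only and 45.0% with TMM within each kind of RNA, and the median of all genes went from -0.07 to 0.10 and 0.08. Between kinds of RNA, library size only moved that median from -0.03 to -0.35 in control and from -0.04 to -0.19 with miR-106b, and the higher share from 50.3 to 37.9% and from 47.3 to 34.0%. Of single genes in polyA RNA 629 of 693 values kept direction and side of the threshold, 62 no longer passed, 1 newly passed and 1 reversed, and for the ratio 847 of 959, with 80 no longer passing and 32 newly passing. Counts in the Ago2-IP libraries were few for Pole2, Prim1, Fen1, Gins1, Rfc4 and Orc1, which limits what can be seen there.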
